A study of Mus musculus with 36 samples.

Results

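The genes described here encode proteins of the splicing machinery and the heterogeneous nuclear ribonucleoproteins (hnRNPs). They were taken by name from the count table as every gene whose symbol begins with Hnrnp, Srsf, Snrp, Sf3a, Sf3b or Prpf, which gave 65 of 16614 genes. They comprise 20 hnRNP genes, 11 serine/arginine-rich (SR) protein genes, 12 genes for core proteins of the small nuclear ribonucleoproteins (snRNPs), 9 genes for subunits of splicing factor 3 (SF3) and 13 pre-mRNA processing factor (PRPF) genes. No measured value was used to choose them, and all 65 passed the low-count filter in every comparison below.

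The study asked whether FMRP, the RNA-binding protein lost in fragile X syndrome, bears on the sites at which ribosomes stall in neuronal RNA granules. Whole brains of C57BL/6 mice, WT or FMR1 KO, were taken at postnatal day 5, and 10 brains were pooled for each preparation. Sucrose gradients separated a pellet, labelled Granule, which holds RNA granules, from fraction 5/6, labelled Polysome, whose ribosomes do not pellet. Ribosome-protected fragments (RPFs) of both, and RNA-seq of the whole homogenate, were sequenced in 3 libraries for each genotype. The set was made under 2 protocols, a standard preparation with 10 mM MgCl2 and more nuclease, labelled M-protocol, and a low-nuclease preparation with 2.5 mM MgCl2, labelled control, which gives 36 libraries in 12 groups of 3. The knockout is present in every cell of the mouse. MgCl2, the nuclease and its amount, the temperature of digestion and the way digested ribosomes were recovered differ together between the preparations, so their effects cannot be told apart.

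Introns are removed from pre-mRNA by the spliceosome, which is built from the U1, U2, U4, U5 and U6 snRNPs. Each snRNP holds a small RNA in a ring of Sm proteins, the SF3A and SF3B complexes belong to the U2 snRNP and hold the branch point, and PRPF proteins work mainly in the U4/U6.U5 particle and its activation. SR proteins and hnRNPs bind the pre-mRNA itself, promote or repress the use of exons, and several hnRNPs also travel with mRNA into the cytoplasm of neurons. Many SR and hnRNP genes limit their own protein through transcripts that carry a premature stop.

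In the standard preparation, 11922190 to 21274803 counts remained per pellet library, 4284209 to 16618125 per fraction 5/6 library and 112240104 to 147207607 per RNA library once the counts of a single gene, Cdk8, were set aside. Cdk8 took 36.7% to 63.4% of the counts of those RPF libraries and 2.69% to 5.62% in the low-nuclease preparation, so levels below are CPM, each count divided by the library's total without Cdk8 and scaled to 1000000. Neuronal markers were high in the RNA of the standard preparation (Tubb3 at 1533 to 2626 CPM and Map2 at 1681 to 2299 CPM), and liver Apoa1 did not exceed 0.891 CPM in any of the 36 libraries. The blood gene Hbb-bs was at 119 to 283 CPM in that RNA and at 0.584 to 3.52 CPM in the standard pellets, and its part in the comparisons of pellet and RNA was not tested. In the low-nuclease preparation, WT RNA replicate 2 and FMR1 KO RNA replicates 2 and 3 had 82.4%, 85% and 82.8% of their counts on 10 genes. Fmr1 stood at 100.1 and 68.6 CPM in WT fraction 5/6 replicates 1 and 2 of the standard preparation but at 3.17 CPM in replicate 3, below the 5.98 to 10.7 CPM of the FMR1 KO fraction 5/6 libraries. The library labelled WT fraction 5/6 replicate 3 therefore goes against its label, and the calls of edgeR's test with TMM scaling that rest on it are given with and without it. Counts under other scalings and by DESeq2 include it. Nothing in the labels says how replicates differ beyond their number, so p-values measure the spread between these libraries. Per the methods, RPF replicates got different linkers, and samples with the same variables were pooled before reverse transcription and PCR. The spread within an RPF group therefore leaves out variation of those later steps between pools.

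The 65 genes together held 0.868% ± 0.0326 (SD, n = 3) of the counts without Cdk8 in WT RNA, 0.982% ± 0.158 in the WT pellet and 1.13% ± 0.282 in WT fraction 5/6 of the standard preparation, where the libraries stood at 1.45%, 0.914% and, in the library that goes against its label, 1.03%. The hnRNPs were the group with the largest sum in each, with 0.434% ± 0.0233 in RNA, 0.543% ± 0.0695 in the pellet and 0.708% ± 0.124 in fraction 5/6. PRPF genes were at 0.0987% ± 0.0099 in RNA and 0.155% ± 0.0071 in the pellet, with no overlap between those 3 and 3 libraries. Much of this rise was that of Prpf8 alone, with a mean of 283 CPM in WT RNA and 737 CPM in the WT pellet. SR genes went the other way, at 0.12% ± 0.004 in RNA and 0.0623% ± 0.0164 in the pellet, again without overlap.

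Between genes, levels were compared per kilobase. In WT RNA, per kilobase of exon, Snrpn was the highest of the 65 at 363 CPM per kb. Snrpn encodes SmN, a form of the Sm ring protein SmB that is made mainly in neurons and expressed from the paternal allele. It was followed by Hnrnpa1 at 139, Hnrnpa0 at 126 and Hnrnpab at 92 CPM per kb, all of them mRNA-binding proteins of the hnRNP A/B group. In the WT pellet, per kilobase of coding sequence, Hnrnpa2b1 stood at 715 CPM per kb, Hnrnpu at 493 and Hnrnph1 at 365, while Snrpn stood at 207. Snrpa had a higher mean of 770 CPM per kb, which rested on 2 of its 3 libraries. The lowest in the pellet were Hnrnpf at 2.88, Snrpg at 3.4 and Snrpf at 7.35 CPM per kb.

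**Figure D1:**
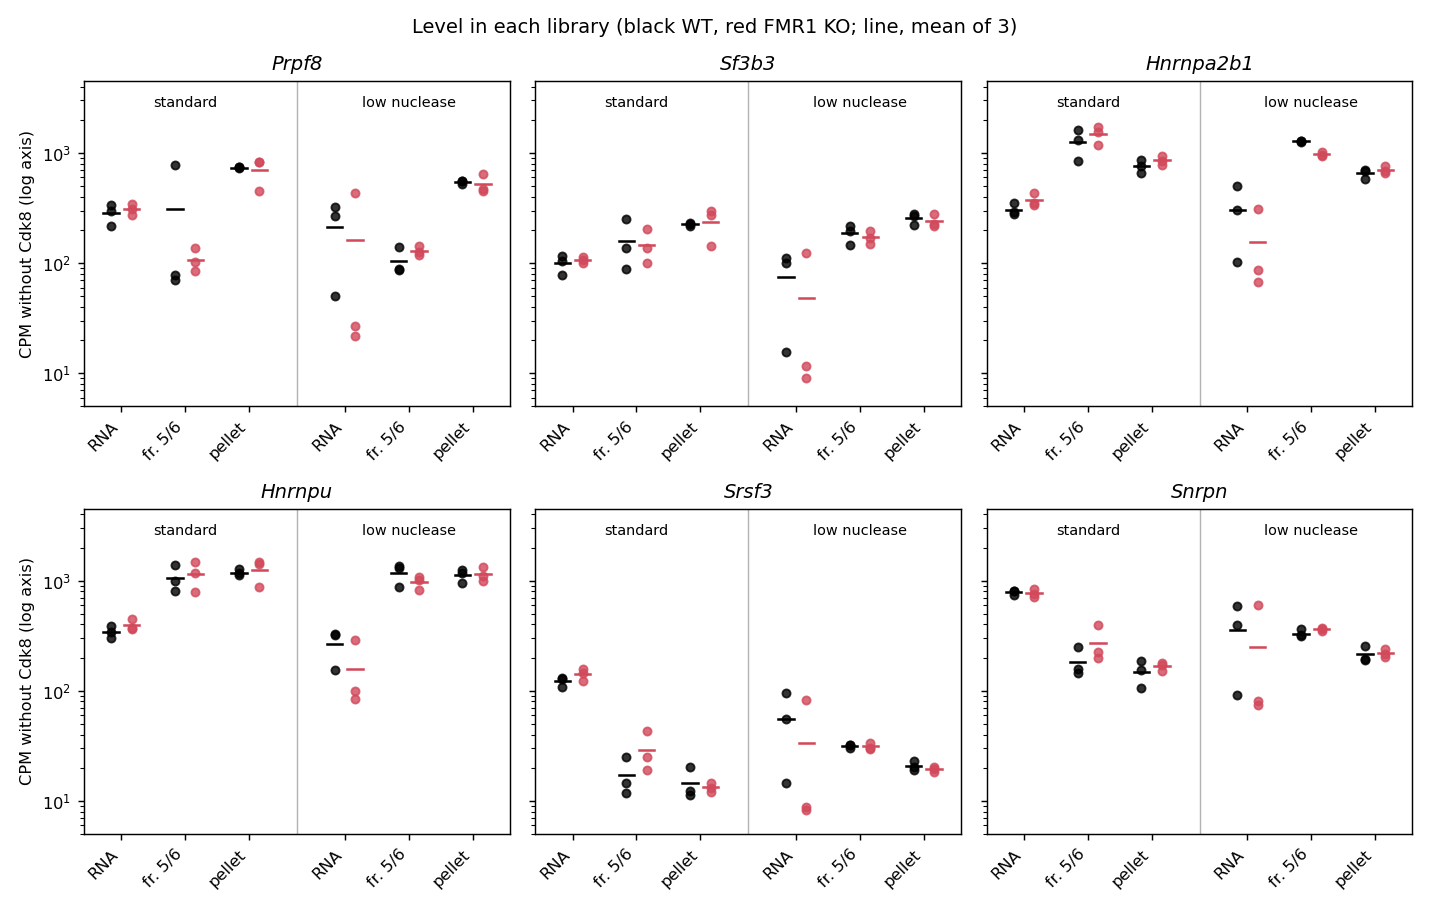
Level of 6 genes in each of the 36 libraries, as CPM without Cdk8 on a log axis, by library type (RNA, fraction 5/6, pellet) and preparation; points are libraries and lines are means of 3. Prpf8 lies at 449 to 835 CPM in the 6 standard pellet libraries and at 69.7 to 136 CPM in 5 of the 6 standard fraction 5/6 libraries, with the WT replicate 3 library at 777 CPM.

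The positions of RPFs within these mRNAs were available as peaks, stretches of a transcript with many fragments, that were called in each of the 12 RPF libraries of the standard preparation. Between 292 and 396 peaks per pellet library lay on 49 to 57 of the 65 genes. They were 1.087% to 1.785% of the 18652 to 36435 peaks of a pellet library, which lay on 3416 to 5156 genes. When peak centres within 6 nt were matched, 19 peaks on 11 genes were found in all 6 pellet libraries. The same number over all genes is not given here. Of the 19 peaks, 17 were in coding sequence and both others in the 5′ UTR of Snrpn. The sequences below are the 30-nt windows around 7 of the shared coding peaks, read from GRCm38, with the codon at the peak centre in capitals. They are shown because Hnrnpa1 and Hnrnpa3, close paralogs whose proteins join RNA-binding domains to a glycine-rich region, both had 3 shared peaks, and because the other 3 come from the SR and SF3 groups.
Hnrnpa1 codon 195: atccagtcagagaGGTcgcagtggttctgg
Hnrnpa3 codon 215: ctggatcacagagaGGTcgtggaggtggat
Hnrnpa1 codon 251: tttggcaatgatGGAagcaattttggaggt
Hnrnpa3 codon 274: atttggaggtgatGGTggcaactatggtgg
Srsf6 codon 87: cggaagccgcagtGGTggaggtggatacag
Srsf1 codon 23: ctacgtgggtaacCTAcctccggatatccg
Sf3a1 codon 447: gctccatccgagagAAGcagagtgatgatg

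The Hnrnpa1 windows lie on the plus strand between chr15:103242285-103242395 (codon 195 of 320) and chr15:103242706-103243641 (codon 251), and each spans an exon junction, so the interval includes an intron. The Hnrnpa3 windows lie on the plus strand at chr2:75662562-75662675 (codon 215 of 379) and chr2:75662912-75663586 (codon 274), also over junctions. The Srsf6 window at chr2:162932132-162933444 (plus strand, codon 87 of 339) spans a junction, while the windows of Srsf1 at chr11:88047892-88047921 (plus strand, codon 23 of 248) and Sf3a1 at chr11:4175536-4175565 (plus strand, codon 447 of 791) lie within an exon. A peak's height is the deposited signal, which is not scaled between libraries. At Hnrnpa1 codon 251 it was 187, 110 and 66 in the WT pellet and 177, 115 and 106 in the FMR1 KO pellet. At Sf3a1 codon 447 it was 60, 34 and 33 in WT and 66, 34 and 60 in FMR1 KO. These values overlapped between the genotypes.

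All 8 shared peaks of Hnrnpa1 (3), Hnrnpa3 (3) and Hnrnpk (2) lay over an exon junction. Of the positions of these coding sequences, 15.3%, 23.5% and 15.8% do. Taken over whole transcripts, 99.1%, 97.8% and 64.3% of the windows of these genes have an identical copy elsewhere in the genome. The position of their peaks is therefore uncertain, and the part of such copies in the shared peaks was not tested. Among the coding peaks of all 65 genes, 24.5% of the 764 peaks found in 1 pellet library spanned a junction, against 58.8% of the 17 found in all 6. The share of peaks whose window also occurs elsewhere in the genome moved with it, from 7.33% to 47.1%, and its part in the junction share was not tested. The letters AGGA or TGGA, searched on the transcript strand only, were in 13 of the 19 windows (68.4%), in 44.7% of all peak windows of these genes and in 40.9% of 250735 peak windows of all genes. Only the 19 were chosen as found in all 6 pellet libraries, so the sets are unlike, and no share is given for such peaks of all genes. The 19 include 3 windows each of the paralogs Hnrnpa1 and Hnrnpa3. One Snrpn peak, at chr7:59995500-59995529 on the minus strand, lies within the coding sequence of Snurf, a separate reading frame carried upstream on the same mRNA, and the other, at chr7:60005058-60005087, ends 9 nt before that frame begins. The number of shared peaks depended on the matching distance and was 8 within 3 nt and 45 within 12 nt.

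Occupancy is the log2 fold change of pellet RPFs over whole-brain RNA, and it shows how many pelleted ribosomes an mRNA carries for its amount. In the standard preparation, 44 of the 65 genes had higher and 13 lower occupancy in WT (edgeR quasi-likelihood test, adjusted p under 0.05), where 31.7% of all 16345 genes tested were higher and 34.8% lower. In FMR1 KO, 42 were higher and 13 lower, against 32.9% and 33.8% of all genes. The median over the 65 genes was 0.94 in WT and 0.93 in FMR1 KO on the log2 scale, where the median over all genes was -0.11 and -0.03. Of the genes that rose, 41 were called in both genotypes, and the 13 that fell were the same 13 genes.

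PRPF genes were the most uniform, with 12 of 13 higher and none lower in WT, and Prpf39 at 0.21 not passing. Prpf8, which forms the core of the U5 snRNP around the catalytic RNA, stood at 219, 296 and 335 CPM in WT RNA and at 742, 730.5 and 739.7 CPM in the WT pellet. All 3 pellet libraries lay above all 3 RNA libraries, and its occupancy was 2.54 (SE 0.18, adjusted p = 2.87e-07). Prpf38b (2.09) and the kinase gene Prpf4b (2.03) were also among the higher genes. Among SF3 genes 7 of 9 were higher. Sf3b1, the subunit that clasps the branch point, was at 111, 133 and 158 CPM in WT RNA and 353, 354 and 343 CPM in the WT pellet, with an occupancy of 2.54 (SE 0.18, adjusted p = 2.75e-07). Sf3b3 (2.34) and Sf3a3 (2.11) were close to it. Sf3b6 was at 0.96, and Sf3b4 (-0.55) and Sf3b5 (-0.76) were lower.

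Of the hnRNP genes, 15 of 20 were higher and 1 lower in WT. Hnrnpu, a large nuclear matrix protein, was at 303, 341 and 389.6 CPM in WT RNA and at 1163, 1264 and 1119.8 CPM in the WT pellet. The groups did not overlap, and its occupancy of 2.93 (SE 0.15, adjusted p = 4.32e-08) was followed by Hnrnph1 (2.65), Hnrnpm (2.46) and Hnrnpa2b1 (2.45). Hnrnpa2b1, whose protein binds transport signals in neuronal mRNAs and was followed in the pellet by immunoblot in this study, stood at 291, 278 and 349 CPM in WT RNA and at 760.3, 858 and 652 CPM in the WT pellet. Hnrnpa1 (-0.14) and Hnrnpa3 (-0.13) did not pass the test, and Hnrnpul1 fell by 0.39. Hnrnpf, a protein that binds G-rich RNA, was at 56, 60.3 and 68.6 CPM in WT RNA and at 2.91, 4.74 and 3.1 CPM in the WT pellet. All 3 pellet libraries lay far below the RNA libraries, but its occupancy of -2.97 (SE 1.22) had an adjusted p of 0.0502 in edgeR's test, whose estimate of the spread is shared with the FMR1 KO libraries. Without FMR1 KO pellet replicate 2, where the gene stood at 122 CPM, it was -3.0 (adjusted p = 2.29e-07 by edgeR), and 14 of the 65 genes were lower in WT, against 36.3% of all genes.

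SR and snRNP core genes were split. Of 11 SR genes, 5 were higher in WT, with Srsf7 at 1.03 and Srsf11 at 0.94, and 4 were lower. Srsf3, the smallest SR protein, stood at 131, 109 and 128 CPM in WT RNA and at 11.3, 20.1 and 12.2 CPM in the WT pellet. Every pellet value was below every RNA value, and its occupancy was -1.94 (SE 0.18, adjusted p = 2.96e-06), close to Srsf12 (-1.91) and Srsf10 (-1.83). Of 12 snRNP core genes, 5 were higher and 6 lower. Snrpg, a subunit of the Sm ring, had 16, 10 and 9 counts in the WT pellet libraries, or 0.752, 0.818 and 0.755 CPM, against 40.9, 27.4 and 28.1 CPM in WT RNA. Its occupancy was -4.2 (SE 0.24, adjusted p = 7.15e-08), and the other Sm ring genes Snrpd2 (-3.25), Snrpf (-2.72) and Snrpe (-1.13) were also lower, whereas Snrpd3 (1.06) and Snrpb (0.92) were higher.

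The paralogs Snrpb and Snrpn lay on opposite sides. Snrpn was at 806, 809.9 and 739 CPM in WT RNA and 153, 187 and 107 CPM in the WT pellet, and its occupancy was -1.26 in WT and -1.04 in FMR1 KO. Snrpb was at 77.8, 83.4 and 91.4 CPM in WT RNA and 68.9, 86 and 61.7 CPM in the WT pellet, which overlap on this scale, while its occupancy was 0.92 in WT and 1.04 in FMR1 KO. The CPM and the occupancy of a gene can differ in direction because occupancy was scaled by the trimmed mean of M-values (TMM), which sets the bulk of genes near 0. Scaled by library size without Cdk8 instead, the median over all genes was -1.24 in WT and -1.14 in FMR1 KO, and 16 of the 65 genes were higher and 24 lower in WT, against 8% and 65.7% of all genes, and 15 and 26 in FMR1 KO, against 9.04% and 63.1%. By library size alone, with all-gene medians of -2.08 and -2.26, 1 was higher and 45 lower in WT, against 2.48% and 84.1%, and 1 and 48 in FMR1 KO, against 2.71% and 86.6%. The distance of the 65 genes' median from that of all genes was 1.05 with TMM and 1.03 without Cdk8 in WT.

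In fraction 5/6, 49 of the 65 genes had higher and 13 lower RPFs over RNA in WT, against 31% and 30.4% of all genes, and 46 and 11 in FMR1 KO, against 27.9% and 29.9%. These comparisons use the same RNA libraries as the pellet occupancy, so the values are only set side by side. Hnrnpa2b1 was at 3.33 in fraction 5/6 and 2.45 in the pellet of WT, Hnrnph1 at 3.19 and 2.65, and Hnrnpm at 2.95 and 2.46. Snrpg was at -3.55 and -4.2, Snrpd2 at -3.37 and -3.25, and Srsf3 at -1.62 and -1.94. Without WT fraction 5/6 replicate 3, 49 were higher and 12 lower in WT, against 30.1% and 32.3% of all genes, and 48 and 13 in FMR1 KO, against 29.8% and 32.9%. WT values were then 3.59 for Hnrnpa2b1, 3.38 for Hnrnph1, 3.01 for Hnrnpm, -3.14 for Snrpg, -3.22 for Snrpd2 and -1.47 for Srsf3. By library size without Cdk8, 15 genes were higher and 16 lower in WT, against 6.63% and 61.3% of all genes, and 22 and 14 in FMR1 KO, against 7.98% and 52.9%. By library size alone they were 3 and 37 in WT, against 2.91% and 83.5%, and 4 and 27 in FMR1 KO, against 2.82% and 75.9%.

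WT occupancy was higher for members with longer coding sequences, with a Spearman's rho of 0.60 across the 65 members, 0.54 across the 36 with under 10% copied sequence (defined next) and 0.37 across 16266 genes. It was lower where more of the coding sequence occurs more than once in the genome, which affects how reads can be assigned, with a rho of -0.34 across the members. These values describe genes that share the same libraries and are not a test. Of the 30-nt windows of each coding sequence, 100% of those of Snrpg, 97.8% of Hnrnpf, 94.2% of Srsf3, 88.6% of Snrpd2 and 83.4% of Snrpf had an identical copy elsewhere in GRCm38, as processed pseudogenes leave. Taken over whole transcripts, the share was 99.1% in Hnrnpa1, 97.8% in Hnrnpa3, 70.3% in Srsf5, 66.9% in Hnrnpc and 64.3% in Hnrnpk, none of them called lower in WT. The counts of all these genes are therefore uncertain. Among the 17 genes with 50% or more copied windows, 5 were higher and 8 lower in WT occupancy, with a median of -0.55. Among the 36 genes with under 10%, 28 were higher and 4 lower, with a median of 1.18. The part of copied sequence in these values was not tested. Srsf12 (-1.91, 0.78% copied), Srsf9 (-0.83, 1.1% copied) and Sf3b5 (-0.76, 0% copied) were lower with little or no copied sequence. The coding sequence of 12 members overlaps another gene, 3 of them on the same strand, including 36.8% of that of Snrpn.

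**Figure D2:**
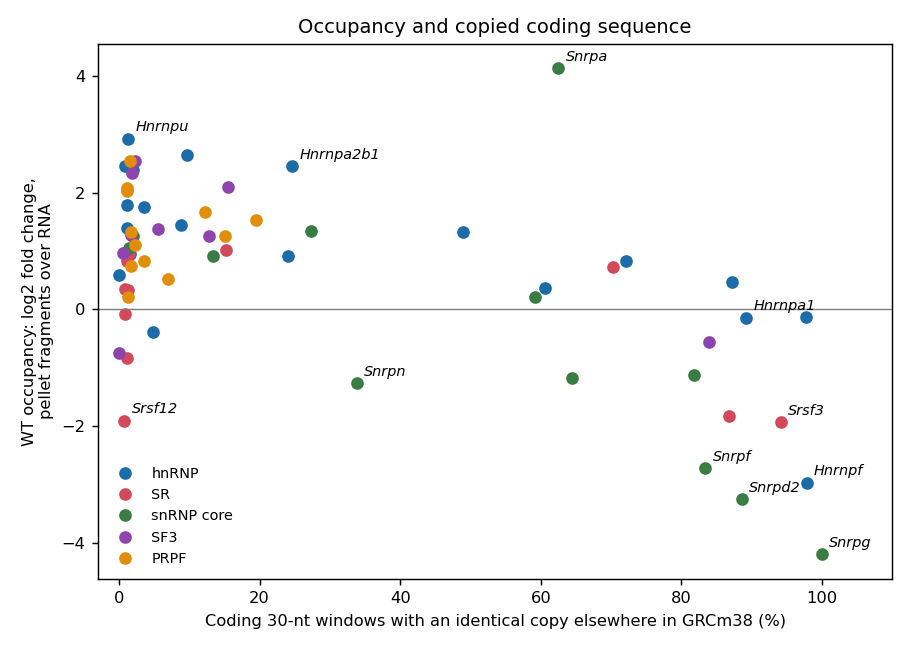
WT occupancy (log2 fold change of pellet RPFs over RNA, standard preparation) of each of the 65 genes against the share of its coding 30-nt windows with an identical copy elsewhere in GRCm38. Snrpg at 100% copied windows has the lowest occupancy, and Snrpa at 62.5% the highest.

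The low-nuclease preparation gave the same comparison in separate libraries. There, 27 genes had higher and 9 lower occupancy in WT, against 23% and 18.9% of all genes, and 28 and 11 in FMR1 KO, against 22.2% and 19.3%. Of the 27, 24 were also higher in the standard preparation, and 6 of the 9 that fell were also lower there, namely Snrpd2, Snrpf, Snrpg, Snrpn, Srsf10 and Srsf3. Hnrnpul1 changed in opposite directions, at -0.39 in the standard and 1.89 in the low-nuclease preparation of WT. Sf3b1 was at 2.38 and 2.37 in WT and FMR1 KO, and Prpf8 at 1.29 and 1.41. Without the 3 RNA libraries dominated by 10 genes, 37 genes were higher and 11 lower in WT, against 29.1% and 27.7% of all genes, and 35 and 8 in FMR1 KO, against 25.2% and 24.7%. Against the RNA of the standard preparation, 35 were higher and 18 lower in each genotype, against 31.3% and 32.8% of all genes in WT and 31.1% and 33.5% in FMR1 KO. Scaling by library size without Cdk8 left 2 higher and 0 lower in each genotype, against 1.48% and 0.206% in WT and 2.25% and 0.231% in FMR1 KO. At an unadjusted p under 0.05 there were then 7 members (10.8%, against 7.56% of all genes) in WT and 13 (20.0%, against 11.2%) in FMR1 KO. Leaving out replicate 1 or 2 lowered the WT falls from 9 to 4, against 15.2% and 7.39% of all genes, and in FMR1 KO 15 genes were higher without replicate 1 and 14 without replicate 2, while 6 were lower without replicate 2 and 7 without replicate 3. All-gene shares in FMR1 KO were 17.6% and 11.2% higher without replicates 1 and 2, and 9.92% and 14.1% lower without replicates 2 and 3.

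Enrichment is the log2 fold change of pellet over fraction 5/6 RPFs, and asks which mRNAs sit more in the pellet than in ribosomes that stay in the gradient. In the standard preparation, no member was called in either genotype, where 0.00732% of all genes were called in WT and 0% in FMR1 KO. At an unadjusted p under 0.05 there were 12 members (18.5%) in WT and 20 (30.8%) in FMR1 KO, where 11.7% and 26.2% of all genes were. DESeq2 called none in WT and, in FMR1 KO, 1 higher and 8 lower, against 8.51% and 2.75% of all genes. The median over the 65 genes was -0.30 in both genotypes, with all-gene medians of 0.00 and 0.01. Without WT fraction 5/6 replicate 3, 3 members were higher and 14 lower in WT, against 10.4% and 3.28% of all genes, and 3 and 8 in FMR1 KO, against 10.9% and 3.43%. At an unadjusted p under 0.05 there were then 39 members (60.0%, against 28.8% of all genes) in WT and 34 (52.3%, against 31.1%) in FMR1 KO. Prpf8 and Sf3b3 were among the higher genes in both genotypes in that fit.

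Prpf8 was the clearest case. In the standard fraction 5/6 it was at 77.2, 69.7 and 777 CPM in WT, the last in the library that goes against its label, and at 84.4, 103 and 136 CPM in FMR1 KO. In the standard pellet of FMR1 KO it was at 829, 449 and 835 CPM. Its enrichment was 1.36 in WT (SE 0.71, adjusted p = 0.439 by edgeR) with all libraries, and 3.24 (adjusted p = 8.61e-05 by edgeR) without WT fraction 5/6 replicate 3. In FMR1 KO it was 3.03 (adjusted p = 0.0788 by edgeR) and 3.02 (adjusted p = 3.5e-05 by edgeR).

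In the low-nuclease preparation, where Cdk8 took few counts, the members' RPFs lay toward fraction 5/6. Of the 65 genes, 43 were lower in the pellet than in fraction 5/6 and 1 was higher in WT, against 12.9% and 13.5% of all genes. In FMR1 KO, 26 were lower and 3 higher, against 16.4% and 12.3%, and 22 of the lower genes were shared with WT. Scaled by library size without Cdk8, 49 were lower in WT and 47 in FMR1 KO, against 20.3% and 28.7% of all genes. The median over the members was -0.51 in WT and -0.34 in FMR1 KO, and over all genes -0.03 and -0.04. By group, 14 of 20 hnRNP, 9 of 11 SR, 9 of 12 snRNP core, 6 of 9 SF3 and 5 of 13 PRPF genes were lower in WT. The difference between genotypes in these numbers was not tested in this preparation.

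Hnrnpa2b1 was at 679, 699 and 583 CPM in the WT pellet and at 1281, 1266 and 1283 CPM in WT fraction 5/6 of the low-nuclease preparation. The pellet libraries all lay below those of fraction 5/6, and its enrichment was -0.86 (SE 0.15, adjusted p = 0.00364). In FMR1 KO it was at 768, 689 and 659.6 CPM in the pellet and 1015, 947 and 967 CPM in fraction 5/6, where the groups again did not overlap but the enrichment of -0.28 had an adjusted p of 0.191 in edgeR's test. Sf3a2 (-0.87), Hnrnpdl (-0.79), Hnrnph1 (-0.78), Snrpd3 (-0.73), Hnrnpc (-0.72), Hnrnpr (-0.72), Hnrnpk (-0.72) and Srsf5 (-0.72) were also lower in WT. In FMR1 KO the lowest values among genes past the threshold were those of Snrpd2 (-1.13), Sf3b5 (-1.03), Snrpf (-0.96), Snrpe (-0.93) and Snrpg (-0.92).

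Prpf8 again went the other way. It was at 556, 560.0 and 523 CPM in the WT pellet and at 89, 141 and 86.5 CPM in WT fraction 5/6, and at 642, 456 and 467 CPM against 125, 117 and 143 CPM in FMR1 KO. Its enrichment was 2.49 in WT (SE 0.23, adjusted p = 0.00024) and 2.22 in FMR1 KO (SE 0.23, adjusted p = 0.000576). Sf3b3 (0.68) was also higher in FMR1 KO. Many of the calls in this comparison were lost with fewer libraries. Prpf8 in WT was at 2.44 without replicate 1 (adjusted p = 0.011 by edgeR), 2.67 without replicate 2 (adjusted p = 0.00606 by edgeR) and 2.38 without replicate 3 (adjusted p = 0.0525 by edgeR). Without replicate 3 no member was called in WT by edgeR, where 0.266% of all genes were higher and 0.0444% lower, and 36 members (55.4%, against 22.9% of all genes) had an unadjusted p under 0.05. Without replicate 1 or 2 there were 16 and 14 lower genes in WT, against 3.38% and 2.74% of all genes, and in FMR1 KO the lower genes numbered 0 to 3, against 0.366% to 3.64% of all genes, and the higher 1. The number of members with an enrichment above 0 stayed at 8 to 12 of 65 in WT in those fits, where 47.0% to 49.2% of all genes lay above 0.

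Members with longer coding sequences had higher enrichment. Across the 65 members, Spearman's rho between coding length and low-nuclease enrichment was 0.82 in FMR1 KO and 0.36 in WT, and across 15818 genes it was 0.60 and 0.48. In the standard preparation, with all libraries, it was 0.66 in FMR1 KO and 0.25 in WT, and across 13592 genes 0.56 and 0.41. The genes share the same libraries, so these values describe the pattern and are not a test. Prpf8 has the longest coding sequence of the members, 7005 nt, and ranked 136 in WT and 137 in FMR1 KO among the 15818 genes, while the median enrichment of the 726 genes with a coding sequence of at least 5 kb was 0.90 and 0.87. With the 36 members of under 10% copied windows alone, rho was 0.81 in FMR1 KO and 0.57 in WT.

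**Figure D3:**
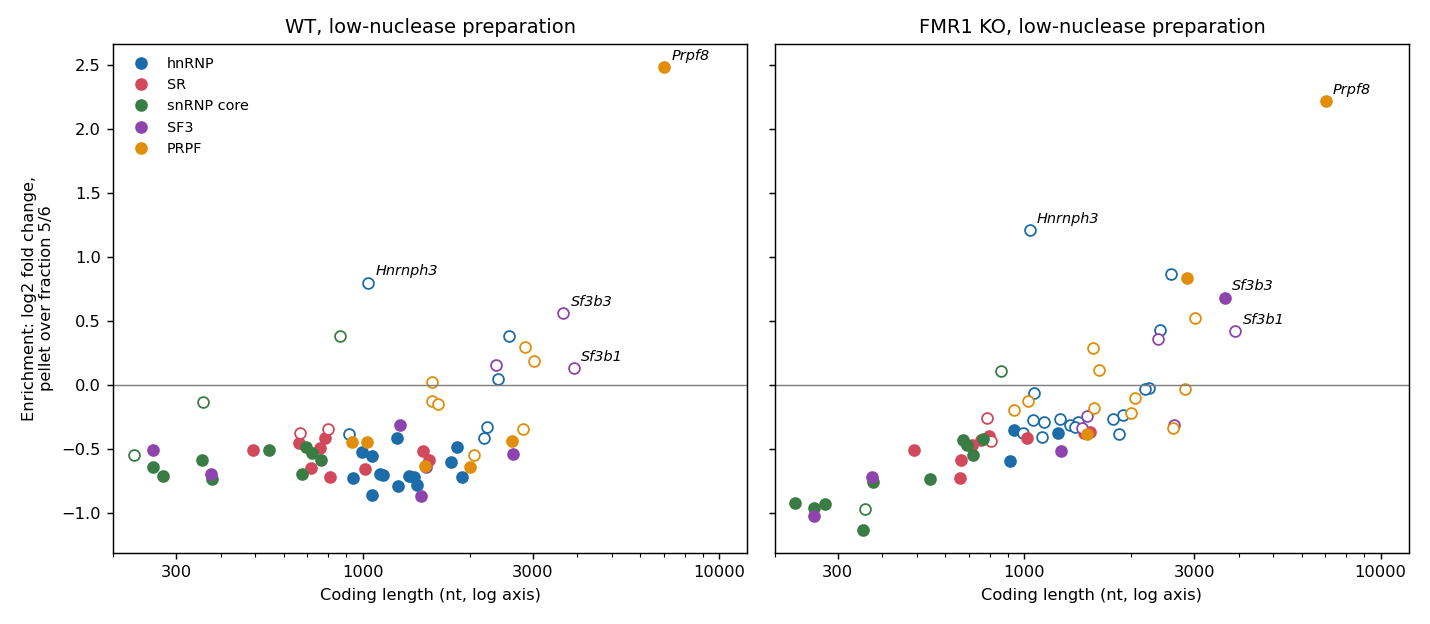
Enrichment (log2 fold change of pellet over fraction 5/6 RPFs, low-nuclease preparation) against coding length on a log axis for the 65 genes in WT and FMR1 KO, filled where the adjusted p is under 0.05. Prpf8, the longest at 7005 nt, lies at 2.49 and 2.22, and 48 (WT) and 47 (FMR1 KO) of the 51 members under 2000 nt lie below 0. Of all genes of any length, 47.6% (WT) and 47.1% (FMR1 KO) lie above 0, and their share under 2000 nt is not given.

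Loss of FMRP was compared at each level. By edgeR's test, 0 of the 65 genes were called between FMR1 KO and WT in pellet abundance (0.015% of all genes were), occupancy (0.0673%), enrichment (0%), fraction 5/6 (0%) and RNA (0.0736%) of the standard preparation, or in pellet abundance of the low-nuclease preparation (0.0197%). DESeq2 called none in any of them. By library size alone, 2 members were called higher in pellet abundance, against 1.27% of all genes, and 1 lower in fraction 5/6, against 1.09%. At an unadjusted p under 0.05 there were 2 members in pellet abundance (3.08%, against 5.29% of all genes), 3 in occupancy (4.62% against 6.17%), 1 in enrichment (1.54% against 5.64%), 1 in fraction 5/6 (1.54% against 4.52%), 5 in RNA (7.69% against 2.58%) and 0 in the low-nuclease pellet (against 4.32%). Without WT fraction 5/6 replicate 3, edgeR again called 0 members in enrichment and in fraction 5/6, with 4 (6.15%, against 5.94% of all genes) and 2 (3.08%, against 6.21%) at an unadjusted p under 0.05. The members' median then moved from 0.018 to -0.063 in fraction 5/6 and from 0.003 to 0.112 in enrichment. Members above 0 in enrichment went from 33 to 44 of 65, against 53.4% and 44.1% of all genes. In RNA the log2 fold changes of FMR1 KO over WT ran from -0.16 to 0.43, with 57 of the 65 above 0 and a median of 0.10, where 50.3% of all genes lay above 0. This number was 48 without replicate 2 and 54 to 58 under the other settings. In whole-brain RNA, fewer cells of a type and less RNA per cell cannot be told apart. In low-nuclease pellet abundance the values ran from -0.32 to 0.40, the narrowest range of the RPF comparisons. Hnrnpa2b1 was at 760.3, 858 and 652 CPM in the WT and 945, 777 and 843 CPM in the FMR1 KO pellet of the standard preparation, which overlap.

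In Hnrnpll, Hnrnpf and Snrpa, the large differences between the genotypes came from 1 or 2 libraries. Hnrnpll, known for splicing of CD45 in lymphocytes, was at 105, 113 and 85.5 CPM in the WT pellet and at 7008, 70.3 and 109 CPM in the FMR1 KO pellet. Only FMR1 KO replicate 1 stands apart, and the gene's occupancy of 5.81 in FMR1 KO became 1.2 without that replicate. Hnrnpf was at 2.33, 122 and 4.41 CPM in the FMR1 KO pellet and at 2.91 to 4.74 CPM in WT. Snrpa, an RNA-binding protein of the U1 snRNP, was at 1192, 774 and 23.1 CPM in the WT pellet, 30.4, 22.1 and 638 CPM in the FMR1 KO pellet, and 2139.9, 27.2 and 36.2 CPM in WT fraction 5/6. In RNA it was at 75.5 to 89.8 CPM in all 6 standard libraries. Its WT occupancy of 4.14 (SE 1.34, adjusted p = 0.0177) was 3.26 without replicate 1 and 4.12 without replicate 2, with adjusted p of 0.127 and 0.0783 in edgeR's test, and without replicate 3 it was the 1 member called between the genotypes in occupancy. Snrpg differed less but in every library, at 0.752, 0.818 and 0.755 CPM in the WT and 1.49, 1.36 and 1.12 CPM in the FMR1 KO pellet, from 9 to 23 counts a library. Its difference in pellet abundance was 0.74 (adjusted p = 0.867 by edgeR) and in occupancy 0.84 (adjusted p = 0.754 by edgeR), and in low-nuclease pellet abundance it was -0.32.

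Between the preparations, the levels of many members differed in the pellet. In WT, RPFs were higher in the standard preparation for 31 genes and lower for 4, against 15% and 23.8% of all genes. In FMR1 KO 15 were higher and 3 lower, against 7.35% and 9.36%, and 14 of the 15 were also higher in WT. The members' median was 0.36 in WT and 0.48 in FMR1 KO, with all-gene medians of -0.05 and -0.02, and Prpf8 (0.96), Srsf7 (0.93) and Hnrnph2 (0.83) were among the genes with the largest rises in WT. In FMR1 KO, DESeq2 called 32 members higher, against 13.7% of all genes, and a fit with a replicate block 4, against 1.9%. The counts of edgeR's test fell to 0 higher without replicate 1 in WT and without replicate 2 or 3 in FMR1 KO, where 7 were higher without replicate 1 (against 3.01% of all genes), and with scaling by library size without Cdk8 they were 1 higher and 7 lower in WT, against 1.98% and 48.8% of all genes, and 0 and 4 in FMR1 KO, against 1.92% and 24.9%. Without those replicates 0.947% of all genes were higher in WT (replicate 1), and 1.37% and 0.346% in FMR1 KO (replicates 2 and 3). At an unadjusted p under 0.05 there were 23 members (35.4%, against 29.0% of all genes) in that WT fit. In the FMR1 KO fits there were 23 (35.4%, against 24.1%) and 24 (36.9%, against 20.9%).

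The 3 genes lower in both genotypes changed far more. Hnrnph3, a small relative of hnRNP H, was at 98.8, 47.4 and 43.4 CPM in the standard WT pellet and at 11701, 2824 and 3211 CPM in the low-nuclease WT pellet, a log2 fold change of -5.96 (SE 0.76, adjusted p = 0.00406). Prpf4b was at 106, 112 and 93.2 CPM and at 7176, 2534 and 2973 CPM, a log2 fold change of -4.79 (SE 0.43, adjusted p = 0.00151). Hnrnpul1 was at 89.8, 99.9 and 83 CPM and at 841, 677 and 432 CPM. In each of the 3 genes the preparations did not overlap. In RNA of the standard preparation Hnrnph3 was at 23.9 to 34.4 CPM and in that of the low-nuclease preparation at 7.01 to 30.1 CPM. Fraction 5/6 of the low-nuclease preparation had the same high RPFs, with Hnrnph3 at 7872, 580.0 and 1881 CPM and Prpf4b at 6291, 3052 and 2236 CPM in WT.

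**Figure D4:**
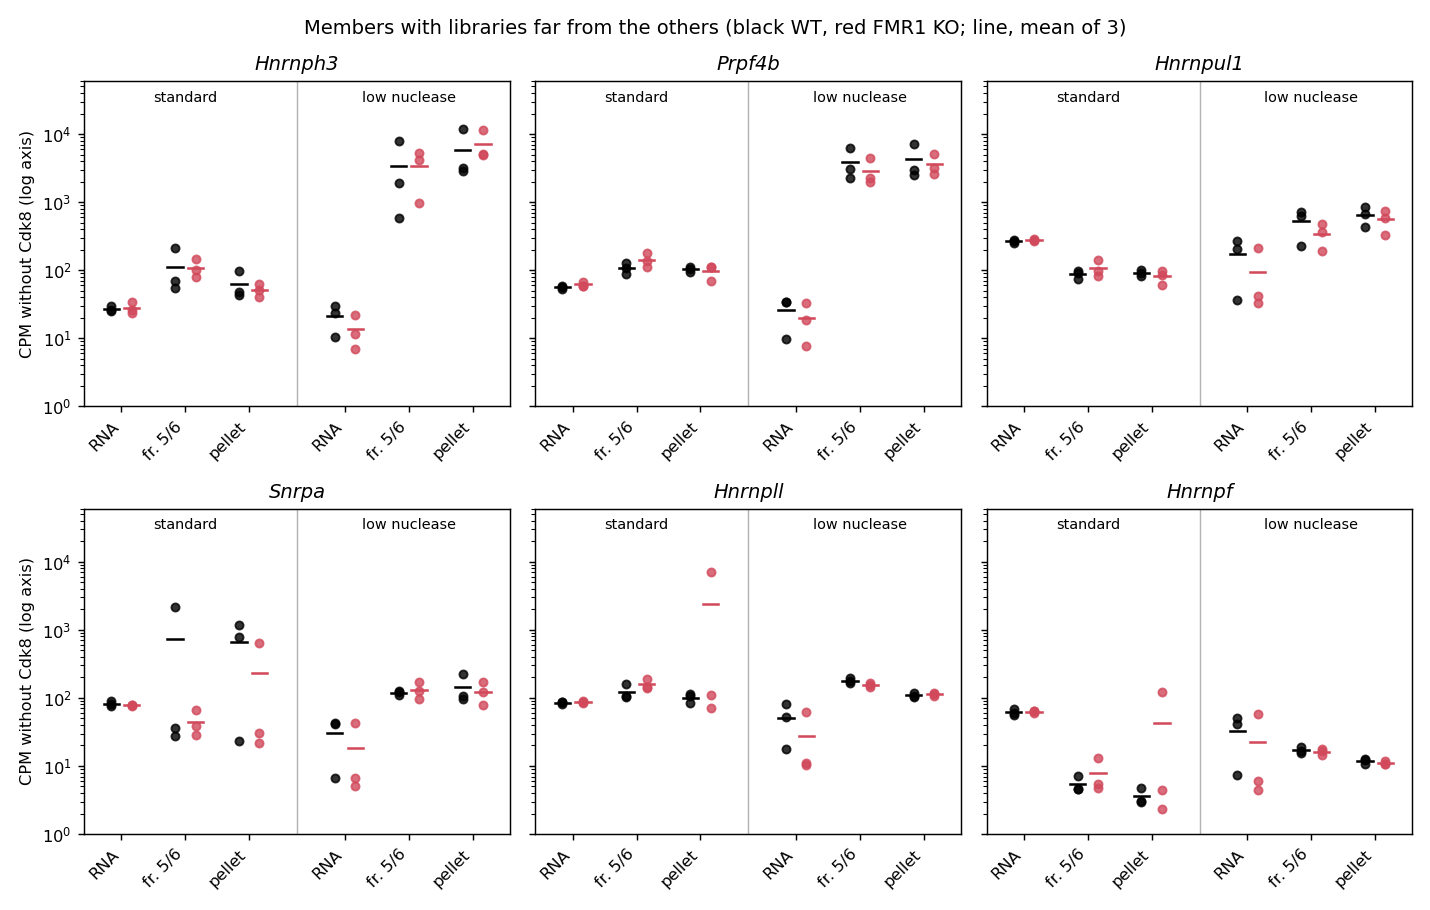
Level of 6 genes with libraries far from the others, as CPM without Cdk8 on a log axis, by library type and preparation; points are libraries and lines are means of 3. Hnrnph3 and Prpf4b are high in every low-nuclease RPF library (at least 580.0 CPM), and Hnrnpll is high in a single library at 7008 CPM.

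Other genes of the pathway, taken from lists of 40 further spliceosome genes and 54 splicing regulators, are given as counts, to be read against the shares of all genes given above for each comparison. In WT occupancy of the standard preparation, 26 of the 40 were higher and 6 lower, among them Snrnp200 (2.89), the helicase that works beside Prpf8, and Snrnp70 (2.64) above, and the Sm-like genes Lsm6 (-3.52) and Lsm7 (-2.07) below. Of the 54 regulators 36 were higher and 10 lower, with the nuclear matrix protein gene Matr3 at 2.78 and Rbm4 at -1.48. In low-nuclease enrichment of WT, 20 of the 40 were lower and 3 higher (Snrnp200 at 1.86, Aqr at 0.68 and Snrnp70 at 0.68), and 23 of the 54 were lower and 3 higher (Son at 2.39, Srrm2 at 1.18 and Pnn at 0.87). In FMR1 KO, 18 of the 40 were lower and 4 higher. Of the 54 regulators, 8 were lower and 4 higher there, where 16.4% of all genes were lower and 12.3% higher. No gene of either list was called between the genotypes in occupancy.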

How the data were processed

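Counts per gene were deposited by the authors for 36 libraries, 3 in each of 12 groups. Per the methods and the submitters' processing notes, reads were trimmed with Cutadapt 2.10, freed of ribosomal and noncoding RNA with Bowtie2 2.3.5, aligned to GRCm38 with STAR 2.7.8a, freed of duplicates with SAMtools 1.19.2 and counted with featureCounts 2.2.0. Removal of duplicates can lower the counts of short RPFs at heavily covered positions. The peak files hold the deposited signal, the height of each peak on a transcript, made by the authors for the standard preparation and not scaled between libraries.

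Counts of protein-coding genes (GENCODE M21) were fitted with edgeR 4.0.16 (R 4.3.3) by the quasi-likelihood test, with TMM scaling, filterByExpr, a prior count of 2 and Benjamini-Hochberg adjustment over all genes tested, with 0.05 as the threshold. SE is the log2 fold change divided by the square root of F. The fit was tested on simulated data. CPM leave out Cdk8. Alternatives were DESeq2 1.42.0, library size scaling, no filter, a replicate block and leaving out replicates. Library size without Cdk8, leaving out 3 RNA libraries and leaving out FMR1 KO pellet replicate 2 were chosen after seeing the data. Every value column was mapped to a sample. Named genes were the 3 highest of each group in the WT pellet and in WT RNA, up to 8 with the largest change per direction past the threshold in each comparison, those with a peak in all 6 standard pellet libraries, Hnrnpa2b1, Snrpb and Snrpn; members named at values short of the threshold, and Hnrnpll and Hnrnpf, were chosen after their values were seen. Of those the rule names, the text gives the ones its comparisons rest on, and 1 item is not reported here. The genes and lists were chosen with earlier results of these data known. Replicate numbers pair no samples in the labels. Deviations of same-numbered libraries correlated above 0.1 in all 3 pairs only between WT pellet and fraction 5/6 of the low-nuclease preparation (0.188, 0.119 and 0.21).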

Additional observations from a re-analysis of the deposited data

How the results depend on the processing

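With library size alone, WT occupancy in the standard preparation gave 1 higher and 45 lower of the 65 genes, FMR1 KO 1 and 48, fraction 5/6 over RNA 3 and 37 in WT and 4 and 27 in FMR1 KO, and between the genotypes 2 genes were called in pellet abundance and 1 in fraction 5/6. With library size without Cdk8, the numbers were 16 and 24, 15 and 26, 15 and 16, and 22 and 14, and in the low-nuclease preparation 2 and 0 in occupancy of each genotype and 47 lower in FMR1 KO enrichment. Between preparations they were then 1 and 7 in WT and 0 and 4 in FMR1 KO. The shares of all genes called in these fits stand beside the same counts in the report. Low-nuclease occupancy against the standard RNA gave 18 lower in both genotypes (32.8% and 33.5% of all genes). DESeq2 gave 1 higher and 8 lower in FMR1 KO enrichment (8.51% and 2.75%), 2 higher in low-nuclease WT enrichment (17.8%), and 32 higher in FMR1 KO between preparations (13.7%), where a replicate block gave 4 (1.9%). The block gave 44 and 13 in WT occupancy, and 1 and 48 in low-nuclease WT enrichment (16.2% and 15.3%). Shared peaks numbered 8 within 3 nt and 45 within 12 nt.

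With 1 replicate left out in every group, calls ranged from 0 to 1 in occupancy between the genotypes, the 1 being lower, against 0.0428% of all genes. Standard enrichment gave 0 to 1 higher (0% to 5.37% of all genes) and 0 to 3 lower (0% to 0.612%) in WT. In FMR1 KO it gave 0 to 2 higher (0.00723% to 5.24%) and 0 to 1 lower (0% to 0.309%). Without the single library WT fraction 5/6 replicate 3 it gave 3 and 14 in WT and 3 and 8 in FMR1 KO. In the low-nuclease preparation, 4 to 8 members were lower in WT occupancy (7.39% to 15.2% of all genes, from 18.9%), and in FMR1 KO 14 to 23 were higher (11.2% to 17.6%, from 22.2%) and 6 to 11 lower (9.92% to 14.1%, from 19.3%). Enrichment there gave 0 to 1 higher (0.266% to 8.11%) and 0 to 16 lower (0.0444% to 3.38%) in WT, and 1 higher (2.95% to 5.05%) and 0 to 3 lower (0.366% to 3.64%) in FMR1 KO. Between preparations, 0 to 27 were higher in WT (0.947% to 9.81%), and 0 to 7 higher (0.346% to 3.01%) and 1 to 2 lower (0.637% to 5.6%) in FMR1 KO. Fewer samples entered these fits. In occupancy and enrichment of the low-nuclease preparation and between preparations, the shares of all genes called were lower than with all replicates. Shared peaks numbered 26 to 30. Snrpa in WT fraction 5/6 over RNA ran from -0.078 without replicate 1 to 4.86 without replicate 2, relative to the median gene. The cause of these changes was not tested. Of 1165 alternative values of single genes, 988 kept their direction and side of the threshold, 176 fell short of it and 1 reversed. Snrpg rested on 16, 10 and 9 counts in the WT pellet libraries of the standard preparation.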
